A study of Mus musculus with 8 samples.

Results

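The genes described here encode 10 neutrophil granule and cytosolic proteins: Mpo, Elane, Prtn3 and Ctsg, whose products are stored in primary granules, and Camp, Ngp, Ltf, Lcn2, S100a8 and S100a9, whose products belong to secondary granules or the cytosol. They were chosen by their symbols, as genes whose FPKM in the 4 groups had already been seen to differ by genotype, so their own values across the groups are a description and are not tested. All 10 are among the 23356 genes of the expression table, and all 10 passed the filter on low values (at least 1 FPKM in at least 1 group), which left 11397 genes.

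The cells were bone-marrow-derived dendritic cells (BMDCs), grown from mouse marrow with GM-CSF and IL-4 and collected as floating and loosely attached cells. They came from wild-type (WT) mice (C57BL/6 in the labels, C57BL/6N in the study's methods) and from mice without GEF-H1 (GEF-H1-/-, labelled Arhgef2-/-), a guanine nucleotide exchange factor for RhoA that is held on microtubules and is encoded by Arhgef2. The study used sex-matched mice of either sex, 8 to 16 weeks old. The loss of GEF-H1 is in all cells of these animals, and a culture of this kind is a mixture rather than a sorted cell type. Cells of each genotype were left untreated (control) or given ansamitocin-P3 at 100 nM for 5 h, a maytansine derivative that destabilizes microtubules, and the comparison asks which responses to this loss of microtubules need GEF-H1. RNA was sequenced from 8 libraries, 2 per group, and the authors pooled both libraries of a group into a single FPKM value (fragments scaled to transcript length and to the mapped fragments of the group), with a 95% interval from Cuffdiff. There are therefore no values for single libraries, no SD and no p-value here. The study's methods give a target depth, and the depth reached behind each value is unknown.

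Neutrophil granules are filled in the order in which their proteins are made. The serine proteases and myeloperoxidase of primary (azurophil) granules are transcribed in promyelocytes, and the antimicrobial proteins of secondary (specific) granules follow in myelocytes and metamyelocytes, when the transcription factor C/EBP-epsilon is active. S100A8 and S100A9 form calprotectin, which fills the cytosol of mature neutrophils and is also made by monocytes. Marrow cultures with GM-CSF hold granulocytes and their precursors beside dendritic cells and macrophages.

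The deleted gene itself followed the labels. Arhgef2 was at 42.3 FPKM in control WT cells (95% interval 34.5 to 49.98) and 45.9 in treated WT cells. In GEF-H1-/- cells it was at 4.59 (3.54 to 5.63) and 4.16 FPKM. The columns for WT cells name no genotype and were assigned by elimination, and Arhgef2 runs the same way. The sum of FPKM over all genes ranged from 594706 to 734144 per group, and bringing the 4 columns to a common scale by the median ratio took factors between 0.995 and 1.01.

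The promoters of 5 of these genes are shown because they stand for both granule classes and for the 5 largest differences between the genotypes in control cells. Each is the RefSeq sequence on GRCm38.p6 from 250 bases before to 50 bases after the gene's start, written 5′ to 3′ on the gene's strand. Capitals mark the letters TTGCNNAA, a core of C/EBP sites, or GAGGAAGT, a core of PU.1 sites, on either strand. The first 3 belong to secondary granule genes on chromosome 9 and the other 2 to primary granule genes: Camp at chr9:109849407-109849706 on the minus strand, Ngp at chr9:110419558-110419857 and Ltf at chr9:111019042-111019341 on the plus strand, Mpo at chr11:87793534-87793833 on the plus strand, and Elane at chr10:79886062-79886361 on the plus strand.
Camp: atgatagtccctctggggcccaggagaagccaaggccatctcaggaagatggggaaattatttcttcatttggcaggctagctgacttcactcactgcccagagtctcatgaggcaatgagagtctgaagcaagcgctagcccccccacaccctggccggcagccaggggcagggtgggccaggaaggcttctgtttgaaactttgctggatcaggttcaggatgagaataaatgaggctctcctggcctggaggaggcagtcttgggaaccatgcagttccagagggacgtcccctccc
Ngp: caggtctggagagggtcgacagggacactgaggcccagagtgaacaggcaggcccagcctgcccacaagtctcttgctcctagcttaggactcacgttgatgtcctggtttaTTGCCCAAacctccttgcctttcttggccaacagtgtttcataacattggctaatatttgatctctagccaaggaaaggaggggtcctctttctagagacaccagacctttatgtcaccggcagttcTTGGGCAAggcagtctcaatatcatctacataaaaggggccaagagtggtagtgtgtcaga
Ltf: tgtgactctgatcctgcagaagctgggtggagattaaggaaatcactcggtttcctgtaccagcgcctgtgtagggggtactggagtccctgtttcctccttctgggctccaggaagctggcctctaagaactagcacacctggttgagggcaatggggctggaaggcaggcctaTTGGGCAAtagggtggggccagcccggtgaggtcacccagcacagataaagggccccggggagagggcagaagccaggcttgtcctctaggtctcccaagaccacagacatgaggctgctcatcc
Mpo: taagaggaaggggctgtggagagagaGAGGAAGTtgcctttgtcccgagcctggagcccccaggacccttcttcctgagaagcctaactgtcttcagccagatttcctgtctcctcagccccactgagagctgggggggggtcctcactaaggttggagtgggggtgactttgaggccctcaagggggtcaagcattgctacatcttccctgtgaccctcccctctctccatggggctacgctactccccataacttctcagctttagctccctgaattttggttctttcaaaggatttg
Elane: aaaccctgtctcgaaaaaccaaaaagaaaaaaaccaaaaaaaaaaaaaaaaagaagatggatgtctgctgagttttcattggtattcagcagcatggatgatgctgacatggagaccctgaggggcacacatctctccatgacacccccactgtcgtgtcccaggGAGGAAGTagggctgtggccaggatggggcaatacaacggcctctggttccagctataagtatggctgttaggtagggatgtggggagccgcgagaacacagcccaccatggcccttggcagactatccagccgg

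The C/EBP letters stand at -138 and -11 from the start of Ngp and at -75 from the start of Ltf, and the PU.1 letters at -224 from Mpo and -85 from Elane. Of all 10 members, Lcn2, Ltf, Ngp and S100a9 held the C/EBP letters in this window, against 10.8% of 32851 promoters of the same length. Elane, Mpo, Prtn3 and S100a8 held the PU.1 letters, against 3.20% of all promoters. No member held both, and Camp and Ctsg held neither. The letters of an NF-kappaB core were in 50.8% of all promoters and in those of Camp, Lcn2, Ltf, Mpo and Prtn3, and those of an AP-1 site, TGANTCA, were in 7.81% of all promoters and in 0 of the 10. These are matches of letters only.

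In control cells, the primary granule genes were higher in GEF-H1-/- than in WT cells and the secondary granule and cytosolic genes were lower. All 4 primary genes had a higher FPKM, by a ratio of 1.46 to 2.39, with a median difference of 0.96 on the log2(FPKM + 1) scale. All 6 of the others had a lower FPKM, with a median of -1.06 and a single very large difference, that of Camp. Over all genes tested the median was -0.01. In bulk RNA, fewer cells of a type and less RNA per cell cannot be told apart.

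**Figure D1:**
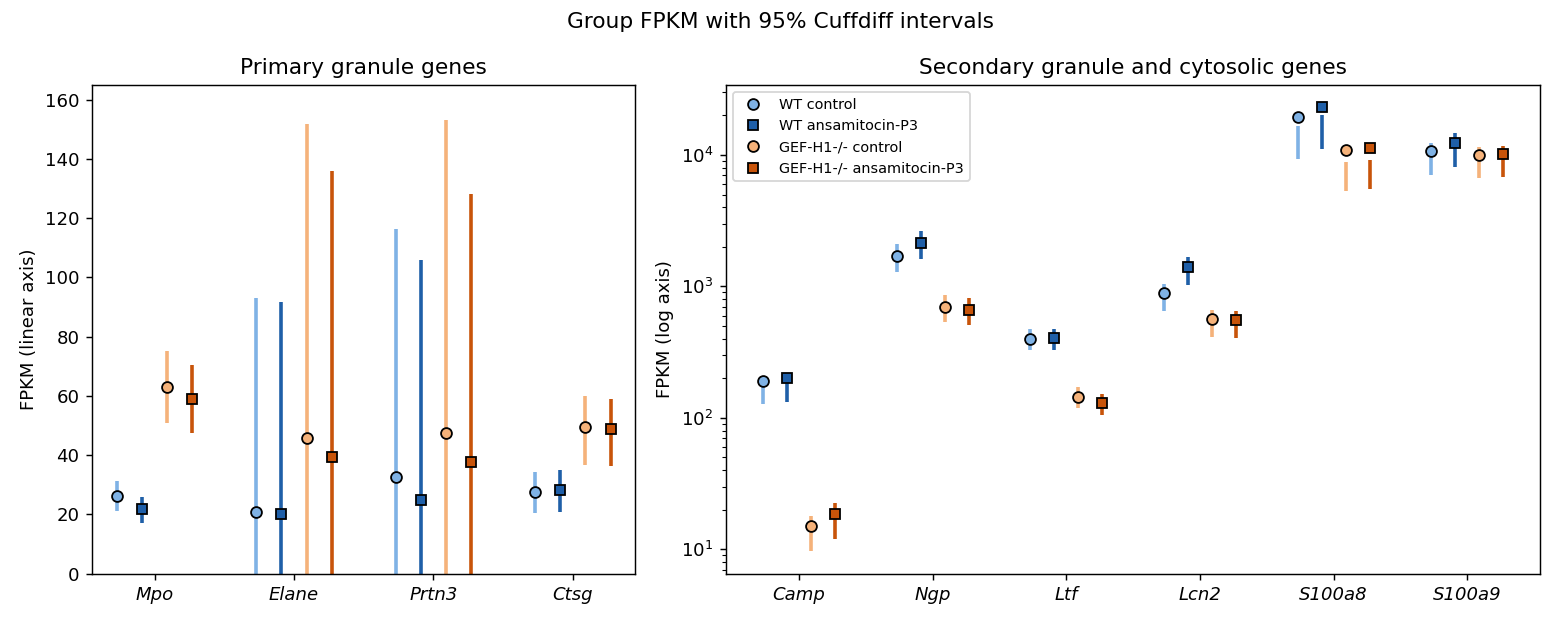
FPKM of each gene in the 4 groups, with primary granule genes on a linear axis and secondary granule and cytosolic genes on a log axis; circles are control and squares ansamitocin-P3-treated cells, blue is WT and orange GEF-H1-/-, and lines are the 95% Cuffdiff intervals of the pooled group value. Mpo and Ctsg sit higher in both GEF-H1-/- groups, Camp is at 189 and 202 FPKM in WT and at 14.98 and 18.7 FPKM in GEF-H1-/- cells, the lines of Elane and Prtn3 start at 0, and the points of S100a8 lie above their own lines.

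Mpo encodes myeloperoxidase, which makes hypochlorous acid from hydrogen peroxide and chloride, and lies on chr11:87793784-87804412. It was at 26.4 FPKM in control WT cells (95% interval 21.3 to 31.4) and 21.7 in treated WT cells (17.1 to 25.9). In GEF-H1-/- cells it was at 63.1 (51.0 to 75.2) and 59.0 FPKM (47.4 to 70.5). Both GEF-H1-/- values lay above both WT values and their intervals did not meet. The control difference was 1.23 on the log2 scale, a ratio of 2.39, and the difference in treated cells was 1.40, a ratio of 2.72. By rank of FPKM among all genes, Mpo moved from 3240 in control WT to 1350 in control GEF-H1-/- cells.

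Ctsg, on chr14:56099881-56102574, encodes cathepsin G, a chymotrypsin-like serine protease of primary granules. Its FPKM was 27.7 (20.6 to 34.5) and 28.4 (20.9 to 35.02) in control and treated WT cells. It was 49.4 (36.8 to 59.9) and 48.7 (36.2 to 59.0) in control and treated GEF-H1-/- cells. The genotypes were apart by their intervals with and without the drug, at log2 differences of 0.81 and 0.76. Its nearest genes did not follow it as a block: the basophil protease gene Mcpt8, on one side, had a control difference of 0.60 with overlapping intervals, and the granzyme gene Gzmc, on the other, was lower in GEF-H1-/- cells (24.1 against 6.75 FPKM, log2 difference -1.69, intervals apart).

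Elane and Prtn3 encode neutrophil elastase and proteinase 3, elastase-like serine proteases, and lie 3.14 kb from each other on chromosome 10 (RefSeq positions chr10:79886312-79888216 and chr10:79879667-79883174). Elane was at 20.7 and 20.2 FPKM in control and treated WT cells and at 45.9 and 39.2 FPKM in control and treated GEF-H1-/- cells. Prtn3 was at 32.5 and 24.9 FPKM in WT and at 47.4 and 37.7 FPKM in GEF-H1-/- cells. In both genes each GEF-H1-/- value was above each WT value, with control log2 differences of 1.11 and 0.53. Cuffdiff placed both in a single locus of 47 genes that spans 0.672 Mb, and every lower bound was 0 (for Elane the intervals were 0 to 93.1 in control WT and 0 to 152 in control GEF-H1-/- cells), so these intervals overlap in every comparison and the direction of both genes rests on the pooled values alone.

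Camp, on chr9:109847377-109849456, encodes the precursor of the cathelicidin antimicrobial peptide and showed the largest difference between the genotypes among the 10. It was at 189 FPKM in control WT cells (128 to 206) and 202 in treated WT cells (133 to 214). In GEF-H1-/- cells it was at 14.98 (9.61 to 18.0) and 18.7 FPKM (11.98 to 22.3). The WT level was 12.6 times the GEF-H1-/- level without the drug and 10.8 times with it, with log2 differences of -3.57 and -3.37 and no overlap of intervals. Camp went from rank 417 among all genes in control WT cells to rank 5036 in control GEF-H1-/- cells.

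Ltf and Ngp, the other secondary granule genes of chromosome 9, differed less. Ltf (chr9:111019292-111042766) encodes lactoferrin, an iron-binding protein of secondary granules, and was at 399 (326 to 473) and 402 FPKM (328 to 476) in control and treated WT cells and at 145 (118 to 171) and 129 FPKM (106 to 152) in GEF-H1-/- cells. Ngp (chr9:110419808-110423012) encodes neutrophilic granule protein, a cystatin-related protein, and was at 1707 (1286 to 2105) and 2135 FPKM (1614 to 2625) in WT and at 702 (535 to 863) and 665 FPKM (506 to 815) in GEF-H1-/- cells. For both genes the WT and GEF-H1-/- intervals were apart in control and in treated cells. The control log2 differences were -1.46 for Ltf and -1.28 for Ngp, and the treated ones -1.63 and -1.68. The ratio of Ngp to Camp, which was 9.02 in control WT cells, was 46.9 in control GEF-H1-/- cells, so that the secondary granule genes did not move by a common factor.

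Lcn2 (chr2:32384637-32387739) encodes lipocalin 2, which binds bacterial siderophores and is also induced in other cells during inflammation. It was at 886 (649 to 1045) and 1409 FPKM (1027 to 1663) in control and treated WT cells. It was at 562 (414 to 665) and 553 FPKM (408 to 655) in control and treated GEF-H1-/- cells. The treated WT value stood above the other 3 groups. In control cells the genotypes' intervals just met, at a log2 difference of -0.66, and in treated cells they were apart, at -1.35.

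S100a8 and S100a9 lie 22.6 kb apart on chromosome 3 and encode the subunits of calprotectin, which binds zinc, manganese and calcium. S100a8 (chr3:90669071-90670034) was at 19401 and 23110 FPKM in control and treated WT cells and at 10856 and 11199 FPKM in GEF-H1-/- cells. S100a9 (chr3:90692633-90695691) was at 10678 (7068 to 12367) and 12394 FPKM (8151 to 14603) in WT and at 10004 (6641 to 11462) and 10130 FPKM (6776 to 11734) in GEF-H1-/- cells. S100a8 was lower in both GEF-H1-/- groups while the S100a9 values lay close together, with control log2 differences of -0.84 and -0.09. The ratio of S100a8 to S100a9 was 1.82 and 1.86 in control and treated WT cells and 1.09 and 1.11 in GEF-H1-/- cells. The deposited S100a8 value lies above the upper bound of its own interval in every group (9356 to 16474 in control WT and 5362 to 8912 in control GEF-H1-/- cells), so its interval does not describe that value and its separation by genotype is given with that limit. S100a8 and S100a9 together made up 4.97% of all FPKM in control WT cells and 3.51% in control GEF-H1-/- cells.

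**Figure D2:**
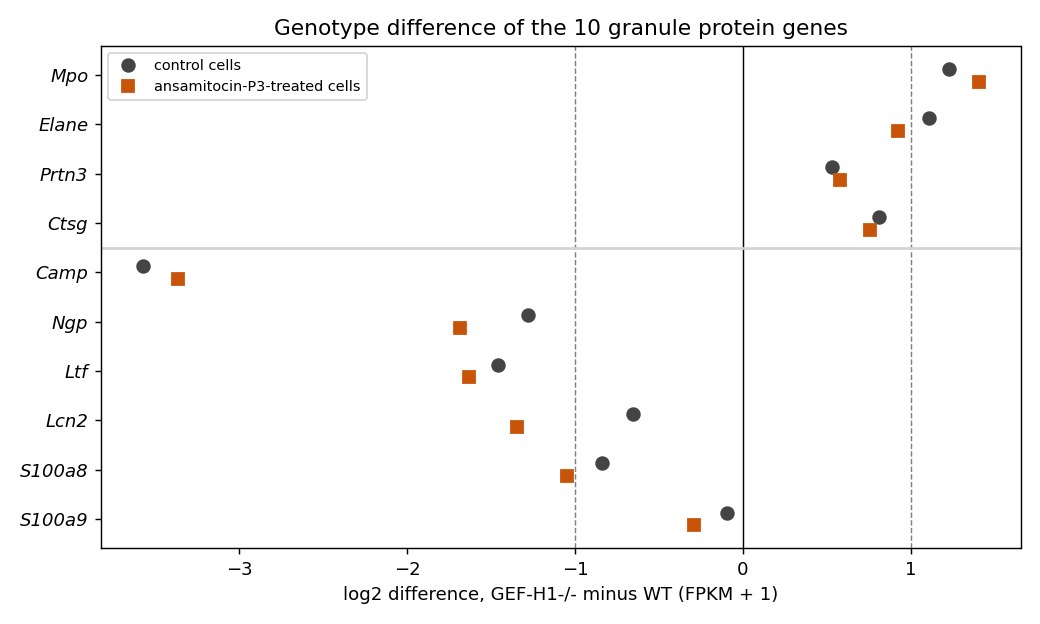
Log2 difference of FPKM + 1 between GEF-H1-/- and WT cells for each gene, in control cells (circles) and ansamitocin-P3-treated cells (squares); dashed lines mark -1 and 1, and the grey line parts primary granule genes from the others. Every primary granule gene lies to the right of 0 and every other gene to the left, from -3.57 for Camp to 1.23 for Mpo in control cells.

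Read against a threshold of 1 on the log2(FPKM + 1) scale, 2 members were higher in control GEF-H1-/- cells (Mpo and Elane) and 3 were lower (Camp, Ngp and Ltf). The value of Elane was 0.98 with a pseudocount of 5 FPKM, and its intervals overlapped, so under either rule 4 members were counted in place of 5. Of all genes tested, 1.26% were higher and 0.614% lower past this threshold. In treated cells 1 member was higher (Mpo) and 5 were lower (Camp, Ngp, Ltf, Lcn2 and S100a8), beside 2.0% and 2.06% of all genes. Elane at 1.11 was just inside the threshold and Ctsg at 0.81 just outside it in control cells. The intervals of WT and GEF-H1-/- cells were apart for 6 of 10 members without the drug (4.74% of all genes) and for 7 of 10 with it (13.7% of all genes). Both counts include S100a8, whose intervals do not describe its values. Since the members were chosen on these same values, nothing is read from these shares.

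The balance of the classes can also be given as ratios of FPKM within a group, which do not depend on the scaling of the columns. Camp was 7.18 and 9.30 times Mpo in control and treated WT cells and 0.237 and 0.316 times Mpo in GEF-H1-/- cells. Ltf was 15.1 and 18.5 times Mpo in WT and 2.30 and 2.19 times in GEF-H1-/- cells. Each of these ratios was lower in both GEF-H1-/- groups than in both WT groups. Summed FPKM of the 4 primary genes was 107 and 95.2 in WT and 206 and 185 in GEF-H1-/- cells, and that of Camp, Ngp, Ltf and Lcn2 was 3181 and 4148 in WT and 1424 and 1366 in GEF-H1-/- cells. In control GEF-H1-/- cells, where the sum of the 4 primary genes was highest, it was still below that of Camp, Ngp, Ltf and Lcn2. Other primary granule genes, taken up below, are not in these sums and came to 2549 FPKM in that group.

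For the response to ansamitocin-P3, treated and control cells of the same genotype were compared. Past a log2 change of 1 there were 0 of 10 members in WT cells and 0 of 10 in GEF-H1-/- cells, beside 4.94% and 1.08% of all genes, and for 0 of 10 were the control and treated intervals apart, beside 16.8% and 3.70% of all genes. With 10 genes, a count of 0 is near these shares. The drug response in WT and the control comparison of genotypes share the control WT group, and each pair of neighbouring comparisons shares a group in the same way.

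The 6 secondary granule and cytosolic genes all had a higher FPKM in treated than in control WT cells, with a median log2 change of 0.23 and a range from 0.01 for Ltf to 0.67 for Lcn2. In GEF-H1-/- cells 3 of them were higher and 3 lower with the drug, from -0.17 for Ltf to 0.30 for Camp. Lcn2 had the largest change of the 10 in WT cells, a ratio of 1.59, and its intervals overlapped only between 1027 and 1045 FPKM, while its log2 change in GEF-H1-/- cells was -0.02. The difference between the genotypes in the response of Lcn2 was -0.69. None of the 10 passed 1 for this difference, beside 1.90% of all genes. The primary granule genes moved by a median of -0.15 in WT and -0.16 in GEF-H1-/- cells on the log2 scale, with Prtn3 the lowest at -0.37 and -0.32.

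**Figure D3:**
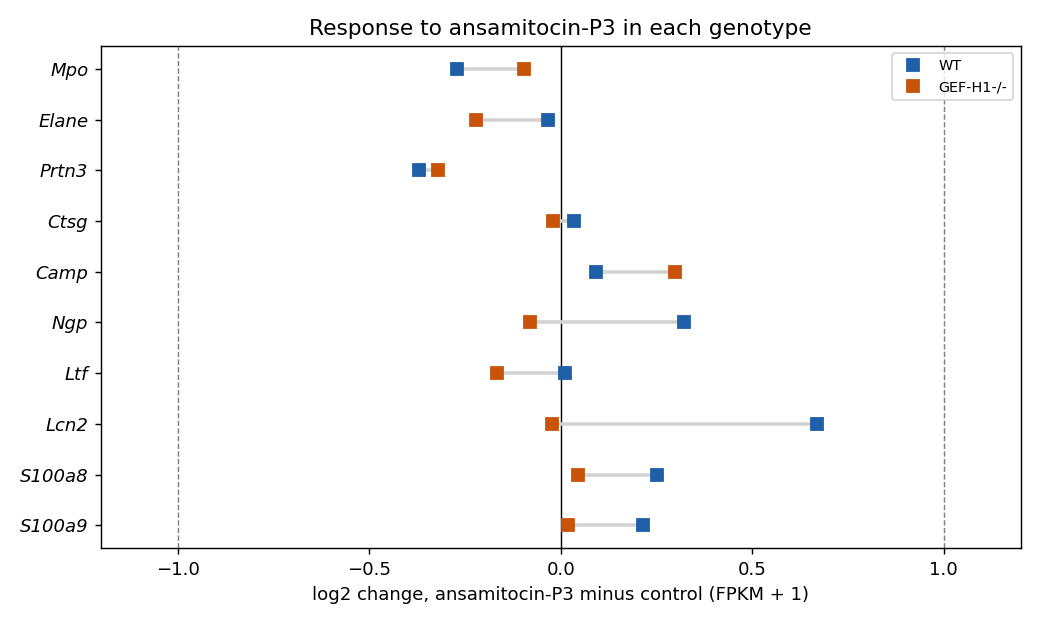
Log2 change of FPKM + 1 with ansamitocin-P3 for each gene in WT (blue) and GEF-H1-/- cells (orange), with a grey line joining both genotypes; dashed lines mark -1 and 1. Every point lies between the dashed lines, and the longest grey line is that of Lcn2, from -0.02 to 0.67.

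Camp, Ngp and Ltf lie within 1.195 Mb of chromosome 9, with 0.570 Mb between Camp and Ngp and 0.596 Mb between Ngp and Ltf. The 14 other tested genes of that stretch had control log2 differences from -0.19 to 0.16, and 0 of them passed 1 in either direction in control or treated cells. In control cells the genes directly beside Camp, Nme6 and Cdc25a, were at 0.02 and -0.09. Beside Ngp, Ptpn23 and Klhl18 were at -0.11 and -0.19 in control cells. In treated cells Ptpn23 and Klhl18 were at -0.63 and -0.45, and the intervals of Ptpn23 were apart. Differences of the size of those of these 3 granule genes were thus not seen in the tested genes between them. S100a8 lies on the same chromosome as the deleted Arhgef2, with 2.02 Mb between them. Of the 58 other tested genes from Arhgef2 to S100a9, 0 passed 1 in control cells, with differences from -0.81 to 0.74, and 2 were higher and 1 lower past 1 in treated cells.

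**Figure D4:**
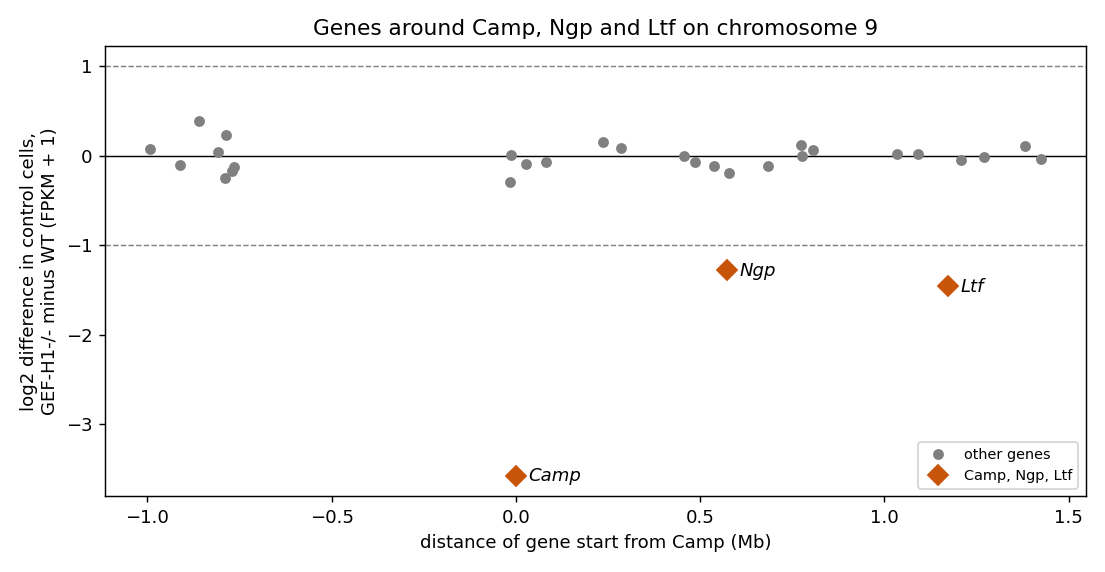
Log2 difference of FPKM + 1 between control GEF-H1-/- and control WT cells for tested genes around Camp, Ngp and Ltf, by the distance of each gene's start from that of Camp in Mb; diamonds are Camp, Ngp and Ltf, grey circles all other genes, and dashed lines mark -1 and 1. The 3 diamonds lie between -3.57 and -1.28 while the genes between them lie within -0.19 and 0.16.

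Other genes of the same compartments did not all move with the members. Of 11 other primary granule genes that passed the filter, 0 differed past 1 between control genotypes, and their median was 0.05. The lysozyme genes Lyz2 and Lyz1 were higher in GEF-H1-/- cells with intervals apart, with Lyz2 at 557 and 511 FPKM in WT and 984 and 909 FPKM in GEF-H1-/- cells (control log2 difference 0.82) and Lyz1 at 0.77. Ctsc, which encodes the protease that activates the granule serine proteases, went the other way at -0.64 with overlapping intervals, and the progenitor gene Ms4a3 was at 46.0 and 47.6 FPKM in control WT and GEF-H1-/- cells. Srgn, the gene of the granule proteoglycan serglycin, had a control difference of 0.79 with intervals apart and a drug response of 1.38 in WT and 0.28 in GEF-H1-/- cells.

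Of 13 other secondary and tertiary granule genes, 1 was higher and 2 were lower past 1 in control GEF-H1-/- cells, with a median of -0.41. The lower genes were Fcnb, encoding ficolin B, at 7.91 against 1.08 FPKM (log2 difference -2.10), and Lrg1, at 39.4 against 11.98 FPKM (-1.64). The higher gene was Mmp9, encoding the gelatinase of tertiary granules, at 66.7 against 138 FPKM (1.04). All 3 had intervals apart. In treated cells 0 were higher and 3 lower, with a median of -0.46. In control cells 6 of these 13 secondary and tertiary granule genes were above 0 and 7 below. The only one higher past 1, Mmp9, is of tertiary granules.

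Among 12 transcription factors known to act on granule genes, 0 passed 1 between the genotypes in control or treated cells (medians 0.03 and -0.23). Cebpe, encoding the C/EBP factor that secondary granule genes need, was at 41.6 and 46.8 FPKM in control and treated WT cells and at 27.6 and 25.1 FPKM in GEF-H1-/- cells. Cebpa, which acts earlier in granulocyte commitment, was at 25.1 and 15.2 FPKM in WT and at 39.1 and 29.7 FPKM in GEF-H1-/- cells. Cebpe was lower and Cebpa higher in both GEF-H1-/- groups, with control log2 differences of -0.58 and 0.62 and overlapping intervals, and with the drug differences of -0.87 and 0.93 and intervals apart. Spi1, which encodes PU.1, had a control difference of 0.04. With ansamitocin-P3, the log2 change of Irf8 was 2.31 in WT cells and 2.01 in GEF-H1-/- cells, and that of Cebpb was 1.72 and 0.45. The Cebpb values lie above the upper bounds of their own intervals in every group, as those of S100a8 do.

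Inhibitors and receptors of the granule proteins were mixed. Of 6 inhibitors that passed the filter, Wfdc17 was higher in control GEF-H1-/- cells, at 114 against 22.3 FPKM (log2 difference 2.30, intervals apart), and 0 were lower past 1, although Wfdc21 was at 257 in WT and 141 FPKM in GEF-H1-/- cells (-0.86, intervals apart). The Wfdc21 values, and those of Wfdc17 in GEF-H1-/- cells, lie above the upper bounds of their own intervals, as those of S100a8 do. The median was -0.35. Of 8 receptors, 1 was lower past 1, Fpr2, whose product also binds cathelicidin peptides, at 91.1 in WT and 43.0 FPKM in GEF-H1-/- cells (-1.07, intervals apart), and the median was 0.10. Tlr4, a receptor for calprotectin, had a control difference of 0.13 and a drug response of 1.37 in WT cells. Of 8 other genes with S100 symbols, 0 passed 1 and the median was -0.34, with S100a6, the neighbour of S100a8, at 0.15. These 8 include S100pbp (-0.18), which does not itself encode an S100 protein.

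Markers of the cells that such cultures can hold also differed between the genotypes, and their part in the granule gene values was not tested. Of 17 neutrophil markers, 5 were higher and 2 lower past 1 in control GEF-H1-/- cells, with a median of 0.11, and their summed FPKM was 997 and 1440 in control and treated WT and 945 and 1023 in GEF-H1-/- cells. Of the 5 higher genes, Cxcr1 passed the filter only through GEF-H1-/- cells (2.32 and 2.63 FPKM, against 0.0963 and 0.402 in WT cells), so nothing is read from its count. Csf3r, the receptor gene for G-CSF, was at 11.3 against 30.7 FPKM (log2 difference 1.37), while Stfa2l1, whose values also lie above their own intervals, was at 268 against 129 FPKM (-1.05) and Cxcr2 at 122 against 131 FPKM. The neutrophil list thus held genes on both sides, and Mrgpra2a and Mrgpra2b were at or near 0 in all groups. Of 12 granulocyte-monocyte progenitor markers, 0 were higher and 1 lower past 1 (Fcnb), with summed FPKM from 138 to 154.

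Eosinophil genes had the lowest median of the marker lists, at -1.22, with 1 of 8 higher and 5 lower past 1 in control GEF-H1-/- cells and summed FPKM of 2330 and 1633 in WT and 1244 and 1066 in GEF-H1-/- cells. The higher gene, Ccr3, passed the filter only through GEF-H1-/- cells (2.86 and 3.21 FPKM, against 0.753 and 0.575 in WT cells), so nothing is read from its count. Ear1, an eosinophil ribonuclease gene, was at 213 against 42.3 FPKM and Epx, encoding eosinophil peroxidase, at 118 against 37.4 FPKM. Siglecf went the other way, at 15.8 against 24.1 FPKM. Basophil and mast cell genes had the highest median, at 0.80, with 3 of 9 higher and 0 lower and summed FPKM of 207 and 232 in WT and 401 and 386 in GEF-H1-/- cells. Fcer1a, encoding the alpha chain of the high-affinity IgE receptor, was at 6.25 against 33.5 FPKM, and the mast cell tryptase gene Tpsab1 was listed at 0 in all groups.

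Macrophage markers had a median of 0.29, with 2 of 10 higher past 1 (C1qa and C1qb). Their summed FPKM was 280 and 452 in control and treated WT and 395 and 378 in GEF-H1-/- cells. With the drug in WT cells, 8 of the 10 were lower, with a median log2 change of -0.41, so the larger sum does not describe most of the list. Dendritic cell markers had a median of -0.27, with 0 of 10 past 1. Their summed FPKM was 5658 and 7317 in WT and 4747 and 5216 in GEF-H1-/- cells. Cd74, the invariant chain gene, and the class II genes were abundant in all groups. Other genes of this list were far lower. In control WT and control GEF-H1-/- cells, Cd209a was at 1.81 and 3.30 FPKM and Zbtb46 at 14.8 and 9.09 FPKM. The share of dendritic cells in the cultures was not tested. Of 2 erythroid markers over the filter 1 was higher and 1 lower, and of 6 lymphocyte markers 0 passed 1 (median -0.33). The higher erythroid gene was under 1 FPKM in both WT groups and passed the filter only through GEF-H1-/- cells, so nothing is read from its direction.

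**Figure D5:**
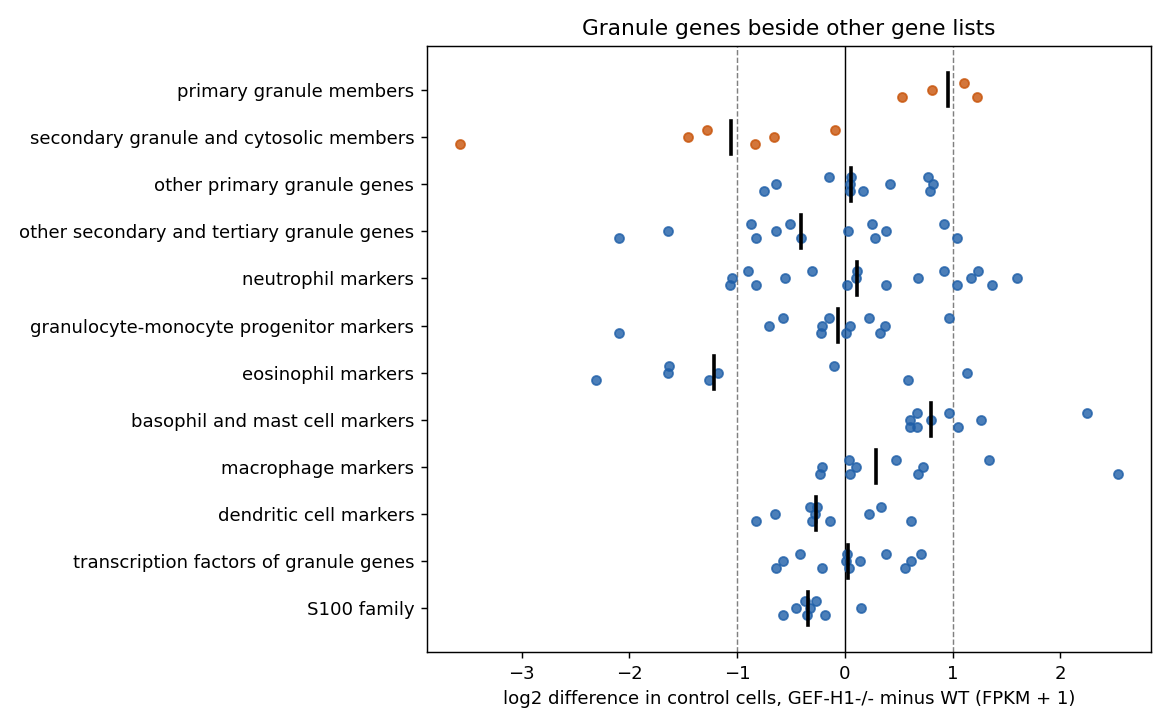
Log2 difference of FPKM + 1 between control GEF-H1-/- and control WT cells for the 4 primary and 6 other members (orange) and for genes of other lists (blue), 1 point per gene that passed the filter; black bars are list medians and dashed lines mark -1 and 1. The primary members have a median of 0.96 and the others of -1.06, and the eosinophil list at -1.22 and the basophil and mast cell list at 0.80 lie on either side of lists near 0.

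The genes whose profile over the 4 groups was most like the mean profile of the primary members, by Euclidean distance between centred log2(FPKM + 1) values, were Fads2, Dynlt1f, Muc13, Col6a2 and Lyz2, at distances from 0.0616 to 0.103. Of these Lyz2 and Fads2 (5.35, 4.60, 11.1 and 10.2 FPKM in control WT, treated WT, control GEF-H1-/- and treated GEF-H1-/- cells) were the most abundant. Dynlt1f (0.193, 0.112, 1.42 and 1.11 FPKM in the same order) and Col6a2 (0.0995, 0.0355, 1.01 and 0.838 FPKM) were near the floor. Both passed the filter only through GEF-H1-/- cells, and their likeness to the members depends on the 1 FPKM added before taking logs. For the other class the nearest were Perp, Fam115c, Gzma, Trat1 and Ly6i, at distances from 0.124 to 0.211, with Gzma at 84.4 and 100 FPKM in WT and 32.4 and 29.0 FPKM in GEF-H1-/- cells. Trat1 passed the filter only through WT cells (2.56 and 2.72 FPKM, against 0.493 and 0.456 in GEF-H1-/- cells). Within the classes, Elane was nearest to the mean profile of the primary members (0.139) and Ngp to that of the others (0.0915), and Camp (2.04) and S100a9 (1.25) were farthest. With 4 points per gene these distances describe likeness only.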

How the data were processed

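RNA from BMDCs was sequenced by the authors as polyadenylated, strand-specific, paired-end libraries, 8 in all and 2 per group. The deposited FPKM values were computed by the authors with Cuffdiff (version 1.05 and build mm10 in the submitters' processing notes) as 1 value per gene and group with a 95% interval. The aligner and annotation of this table are not given in the sources used here. Columns that name no genotype were taken as WT by elimination, and 0 columns of per-sample values were left unused. Positions are written 1-based on GRCm38.

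Of 23356 genes, 106 with a status of low data and 1 with too many data (Chil3, under an older symbol) were left out, and 11397 had at least 1 FPKM in at least 1 group. Differences are log2(FPKM + 1), which understates those of low genes, and a gene was counted past 1 or -1, a ratio of about 2. No test was possible on pooled values. Ly6g and Hbb-bt were not used here, and 1 marker gene is not reported here by name. Python 3.11.15, pandas 2.3.3 and numpy 2.4.6 were used, and the computation was tested on simulated data.

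The members and the 14 other gene lists were chosen with earlier results of these data known. The rule for naming genes from those lists reached up to 4 with the largest difference in any comparison and, for marker lists, up to 4 with the highest mean FPKM. It also reached the 5 nearest profiles per class and genes next to a member. Not every gene that the rule reached is named. Ctsc, Lyz1, Ms4a3, Wfdc21, Cebpe, Cebpa, Spi1, Siglecf, Csf3r, Mrgpra2a, Mrgpra2b, Tpsab1 and S100a6 were named after their values were seen where that rule did not reach them. Alternatives were other pseudocounts, filters, thresholds and scalings and a requirement of separate intervals.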

Additional observations from a re-analysis of the deposited data

How the results depend on the processing

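No paired analysis was possible because the deposited table holds 1 pooled value per gene and group, and for the same reason no library could be left out. Of 105 alternative values for the counts and class medians, 85 stayed close to the reported ones and 20 moved. The sign changed in 2 of the close ones, both for the primary median of the difference in response, which lay near 0 (-0.0035 as reported, 0.0022 after rescaling and 0.06 without the members whose locus is shared). All 150 alternative values of single members kept their direction. Over all genes, with pseudocounts of 0.1 and 5 FPKM and a threshold of 0.5, the counts past the threshold were 956, 318 and 2671 for the drug in WT (563 as reported), 212, 77 and 660 for the drug in GEF-H1-/- (123), 372, 101 and 818 for control genotypes (214), 801, 206 and 2205 for treated genotypes (463), and 387, 123 and 1364 for the difference in response (216). Asking also for separate intervals gave 70 for the drug in GEF-H1-/- and 141 for the difference in response. Elane, past 1 in control cells, was at 0.98 with a pseudocount of 5 FPKM, and its intervals overlapped, so 4 of 10 members were counted under either alternative (5 as reported). At 0.5 the members past the threshold were 9 of 10 for control genotypes (5 at 1), and 1, Lcn2, for both the drug in WT and the difference in response (0 at 1). Without Elane and Prtn3, whose locus is shared, an alternative chosen after seeing the data, the primary median was 1.02 in control and 1.08 in treated cells. The depth reached is unknown, and the intervals cover pooled groups of 2 libraries, not the spread between cultures.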
